A study of Mus musculus with 6 samples.

Results

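The genes *Lipg*, *Lipc*, *Gpihbp1*, *Pltp*, *Lcat*, *Abca1*, *Abcg1*, *Scarb1* and *Lrp1* serve the remodelling of high-density lipoprotein (HDL) and the clearance of lipoproteins, and were followed in the liver as 9 of the 21528 genes listed in any library. They were found by gene name and were chosen by their role with the FPKM difference between these same groups of livers already known, so their values, intervals and counts of calls are a description and no p-value of theirs is given as evidence. RNA was sequenced from the liver of 3 wild-type (WT) mice and 3 mice with the TRIM24-C52/55A knockin, 1 library per mouse, all C57BL/6, 5 months old and kept for 3 months on a diet with 60% fat. The knockin replaces Cys 52 and Cys 55 in the RING domain of TRIM24 by alanine at the endogenous gene, and is not restricted to the liver. By the study's methods, homozygous knockin mice were compared with WT littermates. The comparison asks which liver transcripts differ when the E3-ligase activity of TRIM24 is lost on the high-fat diet (HFD).

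HDL starts as apoA-I that takes up cholesterol and phospholipid from cells through the exporter ABCA1, and it gains further cholesterol through ABCG1. In plasma, LCAT esterifies its cholesterol, PLTP moves phospholipid onto it, and hepatic and endothelial lipase break its lipids down. The liver then takes cholesteryl ester from HDL through the receptor SR-BI, while remnants of triglyceride-rich particles are cleared through receptors such as LRP1. Triglyceride in the blood is hydrolysed by lipoprotein lipase, which GPIHBP1 holds at the capillary wall.

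*Lipg*, which encodes a lipase, and *Pltp*, which encodes a lipid transfer protein, were both lower in every TRIM24-C52/55A liver than in any WT liver. By the means, *Lipg* was 74.1% and *Pltp* 68.2% lower in FPKM, which is a fragment count scaled to transcript length and library size. *Abca1* was modestly higher, and *Abcg1* and *Lcat* were modestly lower, again with no overlap of the groups. The hepatic lipase gene *Lipc*, the receptor genes *Scarb1* and *Lrp1*, and *Gpihbp1* had overlapping groups. All 9 genes passed the filter of a mean of at least 0.5 FPKM. In the fit over all 12225 genes that passed it (limma on log2(FPKM + 1), Benjamini-Hochberg adjustment), 2 of the 9, *Lipg* and *Pltp*, were called lower at an adjusted p-value under 0.05, where 6.09% of all genes were. None of the 9 was called higher, where 1.64% of all genes were. These shares are 744 genes lower and 200 higher, and the split was 406 to 250 after median-of-ratios scaling, 378 to 255 after quantile scaling and 1358 to 197 as TPM. By their ranges, 4 of the 9 lay wholly below and 1 wholly above WT, against 22.5% and 6.31% of all genes. The list was made with this contrast known, so nothing is read from these counts.

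**Figure D1:**
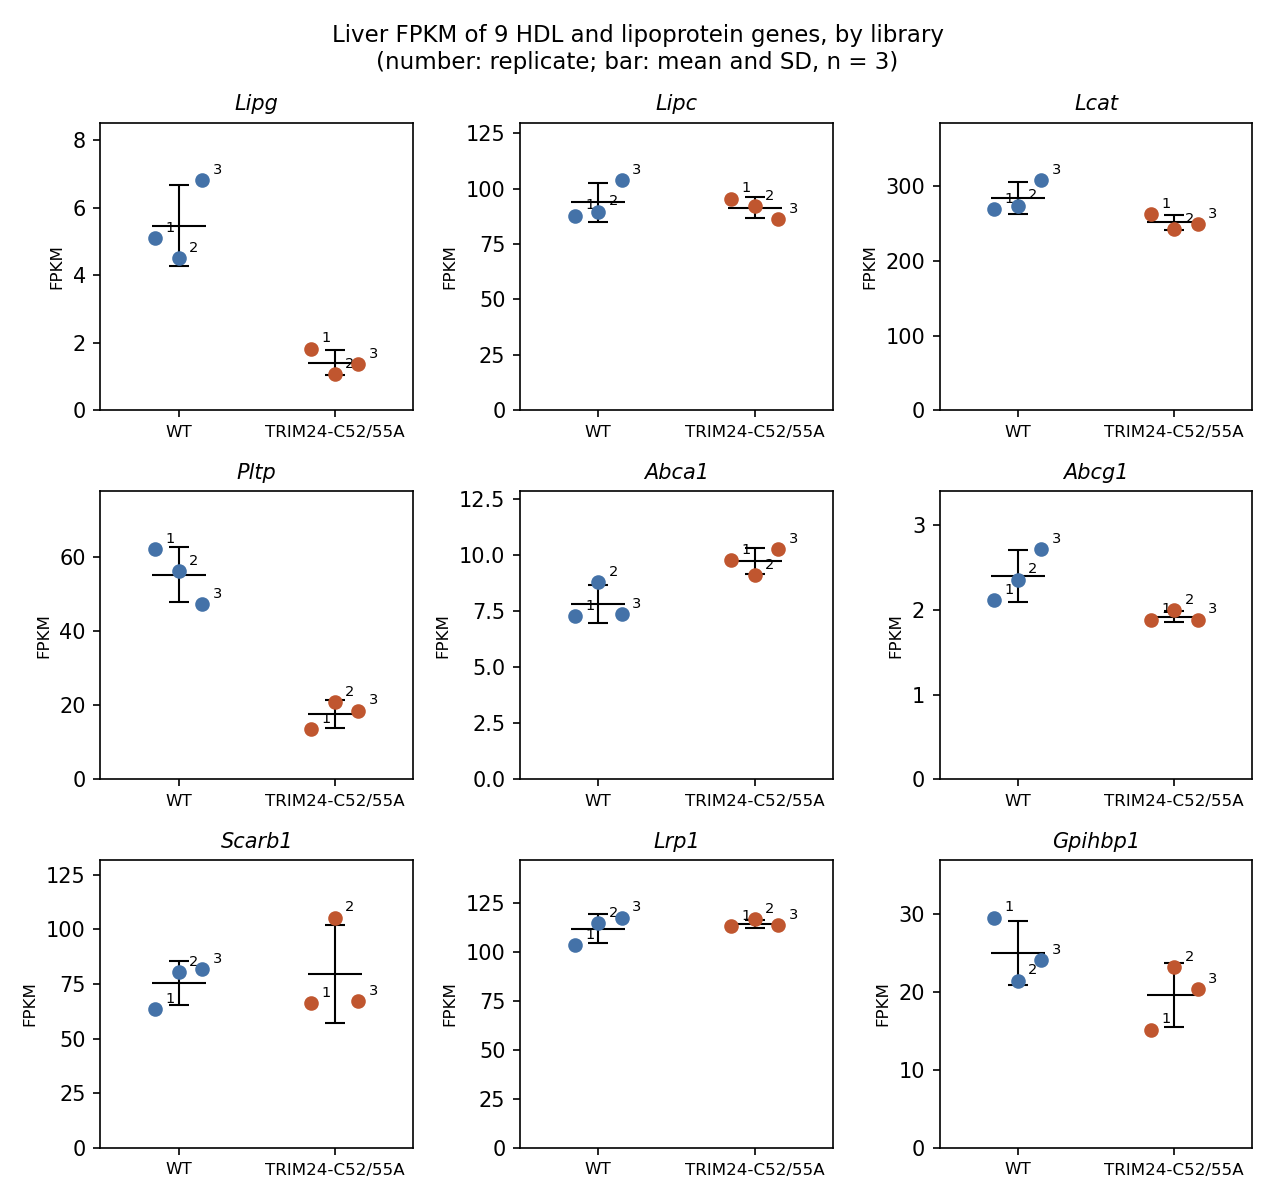
FPKM (vertical axes, from 0) of the 9 genes in each library, with the replicate number beside each point and bars for the mean and SD of 3 livers per genotype. *Lipg* and *Pltp* separate widely, *Abca1* is higher and *Lcat* and *Abcg1* are lower by narrow gaps, and TRIM24-C52/55A replicate 2 is the highest library for *Scarb1*.

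Between 17709 and 17984 genes had a value in a library. FPKM keep no total count, but the steps between low values of the same gene gave relative depths of 0.958 to 1.03 with WT replicate 1 set to 1, and a fragment per kilobase counted for 0.0608 to 0.0652 FPKM. FPKM summed to between 644619 and 648221 in WT and between 673244 and 676791 in TRIM24-C52/55A libraries. TRIM24-C52/55A replicate 2 stood apart, since the adipocyte genes *Adipoq*, *Plin1* and *Lep* had 4.55, 3.32 and 3.98 FPKM there, while elsewhere the highest value was 0.127 FPKM and each was listed at 0 or had no value in at least 4 libraries. Of 7 adipocyte markers, 5 were highest of all libraries there. *Cfd* and *Cidec*, with 2.54 and 6.12 FPKM, were higher there than in the other TRIM24-C52/55A livers but below every WT liver, and *Adrb3* was above WT in all 3 TRIM24-C52/55A livers and highest in that one. All 7 adipocyte markers summed to 20.7 to 31.4 FPKM in WT and 8.58 to 34.5 in TRIM24-C52/55A livers. *Cidec* alone gave 9.9 to 25.2 FPKM of the WT sums and 0.663 to 6.12 FPKM of the TRIM24-C52/55A sums. Stellate cell markers summed to 278 FPKM in TRIM24-C52/55A replicate 2, where 6 of 8 were highest, and to 226 to 238 FPKM in the other libraries. The sums of the cholangiocyte (3.38 to 5.67 and 3.45 to 6.16) and lymphocyte markers (2.68 to 3.16 and 1.98 to 2.48) are given for WT and then TRIM24-C52/55A livers. Hepatocyte markers, 7 of 8 analysed, summed to 13347 to 14749 FPKM in WT and to 12716 to 13455 in TRIM24-C52/55A livers, and moved both ways within that sum. *Cps1* rose by 0.63 and *Cyp2e1* fell by 0.54 on the log2 scale (limma, adjusted p = 0.0281 and 0.0318). With 1 piece of liver per mouse, fewer cells of a type and less RNA per cell cannot be told apart in any value below.

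Among the lipases, *Lipg* encodes endothelial lipase, a phospholipase that acts on HDL (chromosome 18, 74939322 to 74961263, minus strand, GRCm38). Its FPKM were 5.09, 4.50 and 6.81 in WT replicates 1 to 3 and 1.82, 1.06 and 1.36 in TRIM24-C52/55A replicates 1 to 3. The gap between the genotypes was wider than the whole spread within either. The means were 5.47 ± 1.20 and 1.42 ± 0.384 FPKM (n = 3 each, SD), and the log2 fold change was -1.42 (standard error 0.17) on the scale of log2(FPKM + 1). With 0.1 added in place of 1 it was -1.89, against -1.66 for *Pltp*, so the order of these 2 genes depends on the scale. Over the longest coding transcript of 3.79 kb, these levels stand for about 280 to 418 fragments per WT library and 63 to 111 per TRIM24-C52/55A library. *Lipg* was thus a gene of few fragments, at the 48.1st percentile of WT levels among the genes tested.

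*Lipc* encodes hepatic lipase, made by hepatocytes, which hydrolyses triglyceride and phospholipid of HDL and remnants (chromosome 9, 70798128 to 70952226, minus strand). It had 87.8, 89.6 and 104 FPKM in WT and 95.5, 92.1 and 86.1 FPKM in TRIM24-C52/55A livers. The values of the genotypes were interleaved, and the mean difference was -0.04 on the log2 scale, with a 95% interval from -0.24 to 0.17. The FPKM of *Lipg* divided by that of *Lipc* in the same library, a ratio that is free of how libraries are scaled, was 0.0579 ± 0.00772 in WT and 0.0155 ± 0.00380 in TRIM24-C52/55A livers (n = 3 each, SD). The highest ratio in a TRIM24-C52/55A liver was 0.0191 and the lowest in a WT liver 0.0502.

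*Gpihbp1* encodes the protein that carries lipoprotein lipase across capillary endothelium (chromosome 15, 75596628 to 75599481, plus strand). It had 29.5, 21.4 and 24.0 FPKM in WT and 15.2, 23.2 and 20.4 FPKM in TRIM24-C52/55A livers. The groups overlapped through TRIM24-C52/55A replicate 2. Its log2 fold change was -0.35 (standard error 0.17, 95% interval -0.73 to 0.04), which went to -0.47 when that replicate was left out and to -0.18 when TRIM24-C52/55A replicate 1 was. The summed FPKM of 12 markers of sinusoidal endothelial cells, all 12 of them measured, was 162 to 172 in WT and 136, 163 and 146 in TRIM24-C52/55A replicates 1 to 3, so that the overlap rested on replicate 2. By the means, 10 of the 12 were lower, with a median of -0.11 on the log2 scale, and *Lyve1* fell from 6.21 ± 1.89 to 2.07 ± 0.973 FPKM (n = 3 each, SD; limma, adjusted p = 0.0281). The part of these cells in the values of *Gpihbp1* was not tested. TRIM24-C52/55A replicate 1 had the lowest of these sums as well as the lowest *Gpihbp1*.

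Of the genes whose proteins act on the HDL particle, *Pltp* encodes the phospholipid transfer protein (chromosome 2, 164839518 to 164857711, minus strand). It had 62.2, 56.3 and 47.4 FPKM in WT and 13.4, 20.8 and 18.5 FPKM in TRIM24-C52/55A livers. Even the lowest WT liver was over the highest TRIM24-C52/55A liver by more than the spread within each genotype. The means were 55.3 ± 7.46 and 17.6 ± 3.78 FPKM (n = 3 each, SD), and the log2 fold change was -1.61 (standard error 0.16). The files give *Pltp* an interval of 27.0 kb, against 18.2 kb in the GENCODE M21 annotation, and it takes in *Neurl2* and *Ctsa*. *Ctsa*, which lies on the other strand and shares 1515 bases with *Pltp*, had 71.5 ± 1.89 and 60.4 ± 10.6 FPKM (n = 3 each, SD), with overlapping groups. Its log2 fold change was -0.25 (limma, adjusted p = 0.248).

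*Lcat* encodes the enzyme that esterifies cholesterol on HDL (chromosome 8, 105939551 to 105943382, minus strand), and it had the highest level of the 9 genes. Its FPKM were 270, 274 and 308 in WT and 263, 243 and 250 in TRIM24-C52/55A livers. The groups did not overlap, but the gap between them was smaller than the spread inside either genotype. A log2 fold change of -0.17 (standard error 0.08) stood beside a median of -0.08 over all genes tested, and it was 0.00 after quantile normalization. The files' interval of 31.8 kb, against 3.83 kb annotated, also holds *Psmb10* and *Slc12a4*, so fragments of these neighbours could be included, which was not tested. In WT and then TRIM24-C52/55A livers, *Psmb10* had 18.0 ± 1.49 and 17.0 ± 2.68 FPKM (n = 3 each, SD). *Slc12a4* had 5.21 ± 0.120 and 5.84 ± 0.644 FPKM (n = 3 each, SD). The FPKM of *Pltp* divided by that of *Lcat* was 0.197 ± 0.0391 in WT and 0.0703 ± 0.0176 in TRIM24-C52/55A livers (n = 3 each, SD).

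The exporter genes pointed in opposite directions. *Abca1*, whose protein loads lipid onto apoA-I (chromosome 4, 53030787 to 53159895, minus strand), had 7.26, 8.76 and 7.35 FPKM in WT and 9.74, 9.11 and 10.3 FPKM in TRIM24-C52/55A livers. Each TRIM24-C52/55A liver was over each WT liver, although WT replicate 2 came close. The log2 fold change was 0.29 (standard error 0.10), and the groups overlapped when values were rescaled to TPM, with a fixed total per library. *Abcg1*, whose protein exports cholesterol to formed HDL (chromosome 17, 31057698 to 31115777, plus strand), had 2.12, 2.36 and 2.72 FPKM in WT and 1.89, 1.99 and 1.89 FPKM in TRIM24-C52/55A livers. The TRIM24-C52/55A values lay just under those of WT, and the log2 fold change was -0.21 (standard error 0.11). *Abcg1* divided by *Abca1* was 0.310 ± 0.0531 in WT and 0.199 ± 0.0181 in TRIM24-C52/55A livers (n = 3 each, SD), without overlap. Both transporters are also made by macrophages, and the summed FPKM of 12 Kupffer cell and macrophage markers, all 12 measured, was 275 to 348 in WT and 226, 329 and 232 in TRIM24-C52/55A replicates 1 to 3. Replicate 2, the library with adipocyte transcripts, was thus the only TRIM24-C52/55A liver whose sum reached the WT range. All 12 had a lower mean in TRIM24-C52/55A livers, with a median of -0.28 on the log2 scale, and 0 passed the test (limma, 2 at an unadjusted p under 0.05). The part of these cells in the values of *Abca1* and *Abcg1* was not tested.

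The promoters of *Pltp* and *Abca1* are shown because both genes are textbook targets of the liver X receptors (LXR), nuclear receptors that bind direct repeats of AGGTCA, while their values lay on opposite sides of WT. The RefSeq windows (GRCm38.p6) run from 250 bases before to 50 bases after the start of the gene, and 5 of the 9 genes matched an entry. *Pltp* is at chr2:164857659-164857958 and *Abca1* at chr4:53159846-53160145, both on the minus strand. Capitals mark TATAAA, the GC box GGGCGG and the E box CACGTG, read on both strands and without overlap between them.
Pltp: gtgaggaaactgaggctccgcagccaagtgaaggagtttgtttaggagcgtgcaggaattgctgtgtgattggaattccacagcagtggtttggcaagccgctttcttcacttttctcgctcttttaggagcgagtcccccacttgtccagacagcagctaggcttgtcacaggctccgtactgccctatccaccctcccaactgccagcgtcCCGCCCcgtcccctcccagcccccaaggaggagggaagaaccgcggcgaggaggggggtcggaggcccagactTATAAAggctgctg
Abca1: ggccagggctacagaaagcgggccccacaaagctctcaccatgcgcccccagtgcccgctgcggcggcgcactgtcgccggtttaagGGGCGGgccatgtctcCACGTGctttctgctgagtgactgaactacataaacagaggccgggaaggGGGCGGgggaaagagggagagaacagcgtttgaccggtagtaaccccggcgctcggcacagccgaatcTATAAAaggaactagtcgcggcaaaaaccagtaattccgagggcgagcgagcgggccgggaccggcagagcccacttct
The *Pltp* window holds 1 TATAAA, which lies after the annotated start, and 1 GC box. The *Abca1* window holds 1 TATAAA, 2 GC boxes and 1 E box. Of 32851 such windows, 13.6% hold TATAAA, 35.7% the GC box and 7.15% the E box. Neither window holds an exact direct repeat of AGGTCA spaced by 4 bases (DR4) or by 1 base (DR1), which are in 0.0152% and 0.0396% of all windows, nor the single AGGTCA that is part of both and is in 16.3%. A missing match says only that these exact letters are not in this window. Exact repeats are rare in any window, and repeats that differ from these letters were not searched for. The search therefore cannot tell whether either window holds an LXR site.

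Of the receptor genes, *Scarb1* encodes SR-BI (chromosome 5, 125277087 to 125341094, minus strand). It had 63.6, 80.5 and 81.8 FPKM in WT and 66.2, 105 and 67.2 FPKM in TRIM24-C52/55A livers. The high value belonged to TRIM24-C52/55A replicate 2, the library with adipocyte transcripts, and the part of those cells was not tested. Its log2 fold change was 0.05 (95% interval -0.37 to 0.47), and -0.16 without that library. *Lrp1*, which encodes the large remnant receptor (chromosome 10, 127538161 to 127621148, minus strand), had 103, 115 and 117 FPKM in WT and 113, 117 and 114 FPKM in TRIM24-C52/55A livers. It was the steadiest of the 9 genes, with a coefficient of variation of 6.71% in WT and 1.69% in TRIM24-C52/55A livers. Its log2 fold change was 0.03 (95% interval -0.14 to 0.21), although all TRIM24-C52/55A livers were over WT after median-of-ratios or quantile scaling (0.14 and 0.18).

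**Figure D2:**
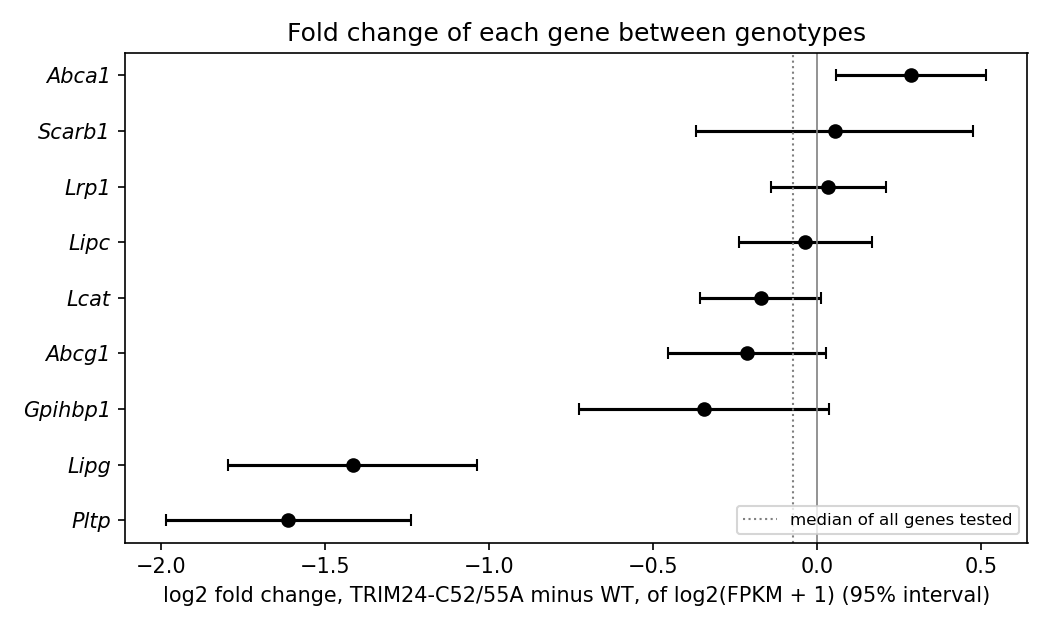
Log2 fold change (horizontal axis, TRIM24-C52/55A minus WT, on log2(FPKM + 1)) of the 9 genes with 95% intervals, ordered by size, and the median of all genes tested as a dotted line. *Pltp* at -1.61 and *Lipg* at -1.42 lie far to the left of the other 7 genes, which run from -0.35 to 0.29.

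The order of the levels, which FPKM allows because it is per length, was *Lcat*, *Lrp1*, *Lipc*, *Scarb1*, *Pltp*, *Gpihbp1*, *Abca1*, *Lipg* and *Abcg1* in WT, from 284 to 2.40 FPKM. The WT ranges of *Lrp1* and *Lipc* overlapped, and no other neighbours in that order did. In TRIM24-C52/55A livers *Pltp* came after *Gpihbp1*, with overlapping ranges, and *Lipg* came last, under *Abcg1* in each library. *Lipc* and *Scarb1* also overlapped there. Within TRIM24-C52/55A livers *Lipg* was highest and *Pltp* lowest in replicate 1, while *Lipg* was lowest and *Pltp* highest in replicate 2. In WT, replicate 3 had the highest *Lipg* and the lowest *Pltp*.

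The tested genes most like *Lipg* by Pearson correlation of log2(FPKM + 1) over the 6 libraries were *Cyp4a14* (r = 0.997), a fatty acid omega-hydroxylase gene, *Adck1* (r = 0.993) and *Uqcc2* (r = 0.993). Their log2 fold changes were -2.22, -0.32 and -0.30. The genes most like *Pltp* were *Efhd2* (r = 0.999), *Ccni* (r = 0.994) and *Dennd1a* (r = 0.994), with log2 fold changes of -0.47, -0.28 and -0.40. The 6 libraries form 2 genotypes, so any gene with a gap of the same direction scores high, and the coefficients are a description.

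The nearest tested genes on each side of the 9 were read for changes in the neighbourhood. On either side of *Lipg*, *Acaa2* had a log2 fold change of -0.19 (limma, adjusted p = 0.187) and *Rpl17* one of 0.02 (adjusted p = 0.921). Beside *Abca1*, *Nipsnap3b* fell from 50.7 ± 1.81 to 40.4 ± 2.47 FPKM (n = 3 each, SD), a log2 fold change of -0.32 (limma, adjusted p = 0.0434), while *Abca1* itself was higher. The nearest gene on the lower side of *Gpihbp1*, *9030619P08Rik* at 165 kb, fell with a log2 fold change of -1.32 (limma, adjusted p = 0.0112).

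The other genes of HDL and lipoprotein handling were read as 4 lists by role, 52 genes of which 51 passed the filter. Of these, 6 were called lower and 1 higher (limma, adjusted p-value under 0.05 over all genes), 11.8% and 1.96% beside 6.09% and 1.64% of all genes tested. Their median log2 fold change was -0.17, beside -0.08 over all genes. These lists too were chosen with earlier results of these data known, so nothing is read from their shares or median. Of the 7 called, *Apoc2*, *Apoa4*, *Cd36* and *Sort1* are among the genes that the study lists as changed on these same libraries, as are *Lipg* and *Pltp*. With TRIM24-C52/55A replicate 2 left out 10 were called lower, and with replicate 3 of that genotype left out 2 were called higher.

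Among 11 partners and inhibitors of the lipases, 2 fell and none rose. *Apoc2*, the activator of lipoprotein lipase, had 509, 400 and 415 FPKM in WT and 155, 230 and 199 FPKM in TRIM24-C52/55A livers. It fell by 1.19 on the log2 scale (standard error 0.15, limma, adjusted p = 0.00480). The files' interval of *Apoc2* also holds *Apoc4*. *Pcsk6*, a proprotein convertase that cleaves lipases, fell from 40.7 ± 3.63 to 25.7 ± 1.47 FPKM (n = 3 each, SD), a log2 fold change of -0.64 (limma, adjusted p = 0.00713). *Angptl4*, an inhibitor of lipoprotein lipase, had a log2 fold change of 0.06 (limma, adjusted p = 0.903).

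*Lpl*, lipoprotein lipase itself and the closest kin of *Lipg* and *Lipc* in the lists, had 1.47, 3.57 and 2.46 FPKM in WT and 2.08, 9.62 and 2.37 FPKM in TRIM24-C52/55A livers. The single high value was again in TRIM24-C52/55A replicate 2, the library with adipocyte transcripts. With it the log2 fold change was 0.50 (limma, adjusted p = 0.562), and -0.07 without it. *Lpl* is made in large amounts by adipocytes, and their part in its value was not tested.

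Among 12 HDL particle proteins tested, 2 fell and none rose. *Apoa2*, the apolipoprotein second to apoA-I on HDL, fell from 13538 ± 549 to 8963 ± 417 FPKM (n = 3 each, SD), a log2 fold change of -0.60 (limma, adjusted p = 0.00948), a call lost without TRIM24-C52/55A replicate 1 and without the filter on low values. *Apoa4* fell by 2.60 on the log2 scale (limma, adjusted p = 0.00273). *Apoa1*, the main HDL apolipoprotein and activator of LCAT, had 6182 ± 545 and 6906 ± 1120 FPKM (n = 3 each, SD), a log2 fold change of 0.15 (limma, adjusted p = 0.548).

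Among 14 sterol transporters and their regulators, 1 fell and none rose. It was *Nr1h2*, which encodes LXR beta, with 20.0 to 22.8 FPKM in WT, while the highest TRIM24-C52/55A liver had 17.1 FPKM. The log2 fold change was -0.48 (limma, adjusted p = 0.0342), and the call was lost in 9 of 15 alternative settings. *Nr1h3*, which encodes LXR alpha, had 47.2 ± 4.24 and 42.5 ± 3.03 FPKM (n = 3 each, SD), and *Pdzk1*, whose protein holds SR-BI at the hepatocyte surface, 29.7 ± 1.70 and 25.7 ± 1.86 FPKM (n = 3 each, SD). Their adjusted p-values from limma were 0.398 and 0.197.

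Among 14 lipoprotein receptors and clearance genes, 1 fell and 1 rose. *Sort1*, the sorting receptor sortilin, had 2.44, 1.86 and 1.51 FPKM in WT and 4.78, 5.23 and 4.09 FPKM in TRIM24-C52/55A livers. The rise was 0.96 on the scale of log2(FPKM + 1) (limma, adjusted p = 0.00779), and 1.26 with 0.1 added in place of 1. *Cd36*, a receptor for fatty acids and oxidised lipoprotein, fell by 1.64 on the log2 scale (limma, adjusted p = 0.000333). *Lrpap1*, the chaperone of LRP1, had a log2 fold change of -0.19 (limma, adjusted p = 0.346).

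**Figure D3:**
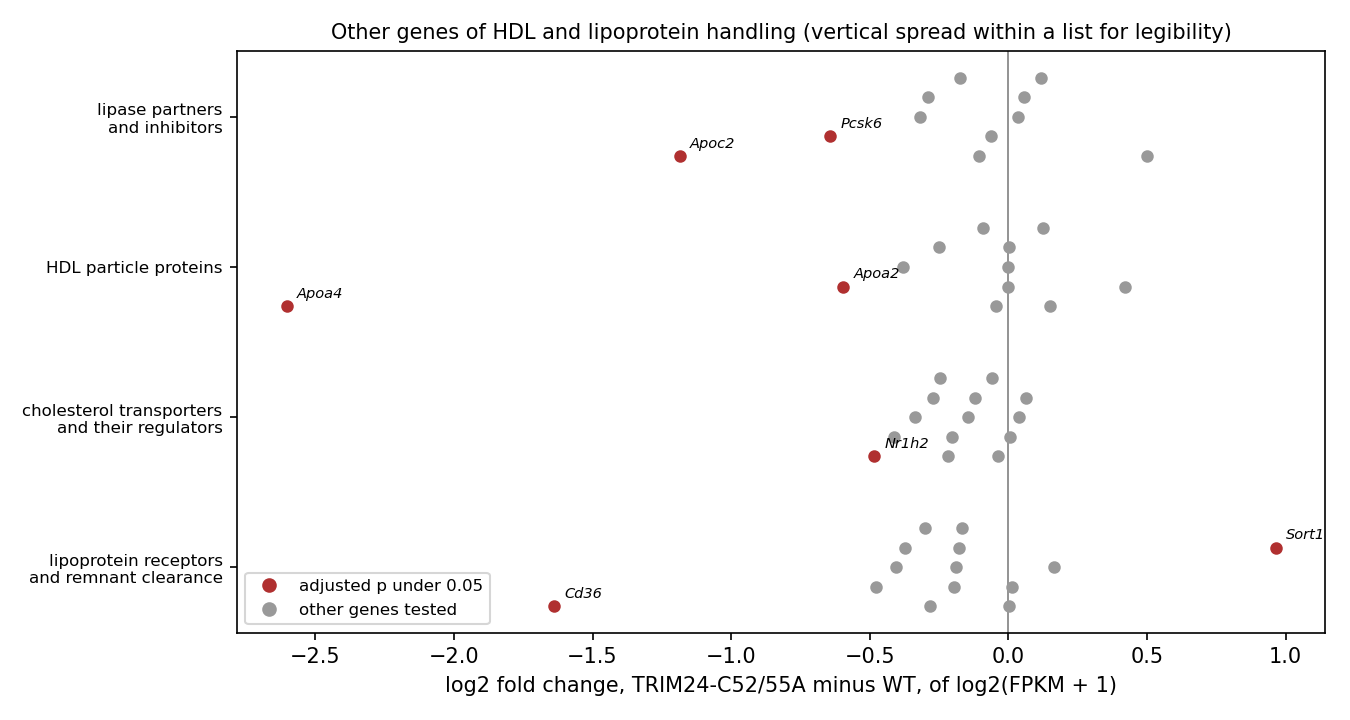
Log2 fold change (horizontal axis, TRIM24-C52/55A minus WT, on log2(FPKM + 1)) of the 51 other genes of lipoprotein handling tested, in 4 lists, with named red points for an adjusted p-value under 0.05 and grey points for the rest. The 7 named points are 6 lower, from *Apoa4* at -2.60 to *Nr1h2* at -0.48, and *Sort1* at 0.96.

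**Figure D4:**
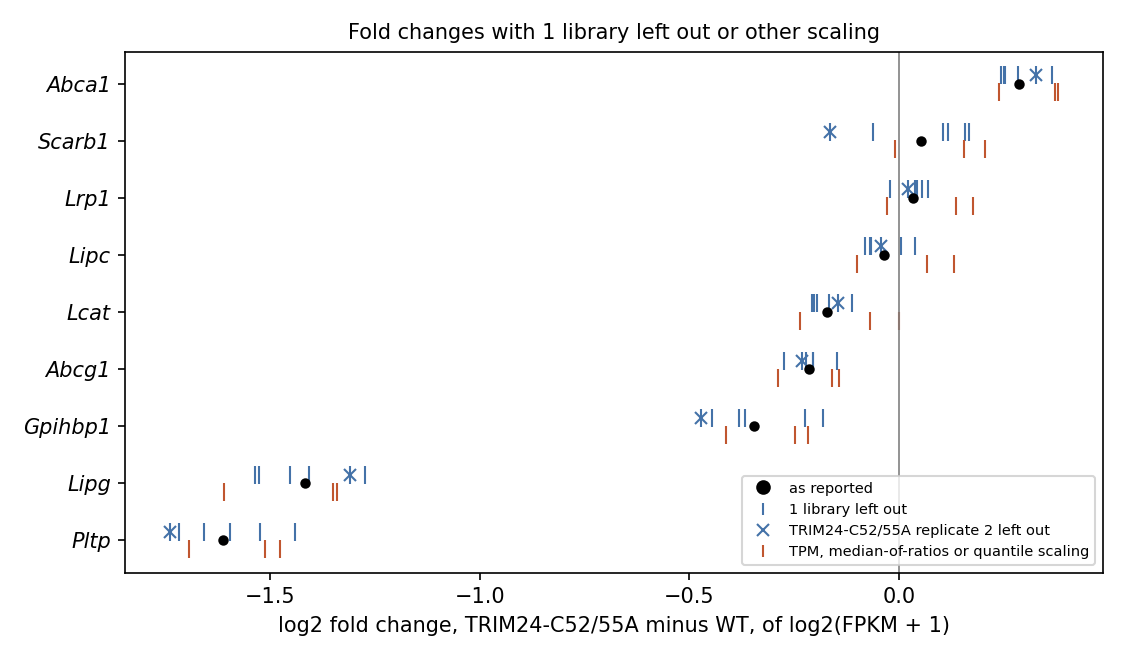
Log2 fold change (horizontal axis) of the 9 genes as reported (black), with 1 library left out (blue, crosses for TRIM24-C52/55A replicate 2) and with 3 other scalings (orange). *Lipg* and *Pltp* stay at or below -1.27, *Abca1* stays at or above 0.24, and *Scarb1*, *Lrp1* and *Lipc* fall on both sides of 0, with *Lcat* at 0.0007 after quantile scaling.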

How the data were processed

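Total RNA of each liver was extracted with Trizol and sequenced, and the authors deposited FPKM for each library. Genes missing from a library's file were taken as 0. The submitters' processing notes name bcl2fastq, Salmon 0.14.0, DESeq2 1.30.0 and GRCm38, and which of these made the FPKM is not given in the sources used here. GENCODE M21 holds 21454 of the 21528 gene identifiers. No batch is named in the labels.

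Genotype and replicate number came from the titles. The log2(FPKM + 1) values were compared by limma 3.58.1 (R 4.3.3, eBayes, trended variance) over genes whose mean reached 0.5 FPKM, adjusting p by Benjamini-Hochberg across all of them. Log2 fold changes are differences on this scale unless another setting is named. The added 1 draws those of genes with low FPKM towards 0. No exact permutation test was run, since its two-sided p cannot go below 0.1 for 3 mice against 3. Python 3.11.15, pandas 2.3.3, numpy 2.4.6 and matplotlib 3.10.9 made the tables and plots, and the fit was tested on simulated data.

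The 9 genes, the 4 lists and the marker lists were chosen with earlier results of these data known. Named were the 9 genes, called list genes, 6 further list genes fixed by name, nearest neighbours that flank *Lipg* or changed, and the 3 genes most like *Lipg* or *Pltp*. Single marker genes and genes inside a files' interval were named after their values were seen. *Alb* was not analysed here, and a few genes of the lists and neighbourhoods are not reported here. Alternatives changed the pseudocount (0.1), the filter (none, or a mean of 1 FPKM), the scaling (TPM, median-of-ratios, quantile) and the variance model (no trend, array weights), added a replicate block, or left out each library in turn.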

Additional observations from a re-analysis of the deposited data

How the results depend on the processing

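Over the 15 alternatives, *Lipg* (-1.89 to -1.27) and *Pltp* (-1.74 to -1.44) were lower in each, *Abca1* was higher in each (0.24 to 0.38), and *Abcg1* and *Gpihbp1* were lower in each, which the choice of the genes makes a description only. Of 135 values for the 9 genes, 129 moved by less than 1 SD between replicates. The rest were -1.89 for *Lipg* with a pseudocount of 0.1, -0.0688 for *Lcat* and 0.14 for *Lrp1* with median-of-ratios scaling, and 0.13 for *Lipc*, 0.0007 for *Lcat* and 0.18 for *Lrp1* with quantile scaling. By the ranges, *Lcat* no longer lay wholly below WT and *Lrp1* lay wholly above it with either of these scalings, where 14.2% and 12.1% of all genes did so with the former. The cause was not tested.

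Genes called lower and higher, 744 and 200 in all, numbered 252 and 95 without the filter. Those called lower numbered 1358 with TPM, 406 with median-of-ratios and 378 with quantile scaling. With 1 library left out they ranged from 202 (without TRIM24-C52/55A replicate 1) to 1041 (without TRIM24-C52/55A replicate 2) lower and from 88 to 239 higher, and leaving out any WT library or TRIM24-C52/55A replicate 1 moved both counts by over 1.5 times. The median log2 fold change of all genes was -0.08, and it was -0.14 with TPM and 0.01 with the other scalings. List genes called lower, 6 in all, were 13 with TPM, 11 with array weights, and 4 to 10 with 1 library left out. Those called higher were 1 to 2, with 2 without TRIM24-C52/55A replicate 3.

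Of 195 values for 13 named list genes, 177 kept direction and side of the threshold and 11 lost a call, 9 for *Nr1h2* and 2 for *Apoa2* (no filter, and without TRIM24-C52/55A replicate 1). The sign turned, without a call, for *Lpl* without TRIM24-C52/55A replicate 2 (-0.0745, against at most 0.819 with another library left out), *Apoa1* (-0.0816) and *Nr1h3* (0.0111) with quantile scaling, and *Angptl4* with TPM (-0.0067), array weights (-0.0358), and without WT replicate 2 (-0.0252) or TRIM24-C52/55A replicate 2 (-0.142), against at most 0.297 with another library left out.

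Same-numbered mice share a number and nothing more in the labels, and their deviations from the group means correlated at -0.123, -0.0988 and 0.00267. With the replicate block, 422 genes were called lower and 156 higher, with 6 list genes lower, and *Nr1h2* lost its call.

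The 3 mice per genotype and the few fragments of *Lipg* and *Abcg1* limit what can be seen. TRIM24-C52/55A replicate 2, the library with adipocyte transcripts, moved *Scarb1* and *Lpl*, and the part of those cells was not tested. *Gpihbp1*, at -0.35, moved further without TRIM24-C52/55A replicate 1 (-0.18) than without TRIM24-C52/55A replicate 2 (-0.47).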
